A study of Mus musculus with 9 samples.

Results

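The lysyl oxidase family of the mouse has 5 genes, Lox, Loxl1, Loxl2, Loxl3 and Loxl4. They were taken by their symbols from the deposited table of read counts, where they are 5 of 55367 gene symbols. All 5 passed the filter on low counts, Loxl4 only through the infarcted groups. The table holds bulk RNA sequencing of left ventricular tissue in 9 libraries, 3 in each of 3 groups. The MI+BPD group had a myocardial infarction (MI) and received BPD, the MI group had an infarction without BPD, and the Sham group had sham surgery. Tissue was taken at day 14 after MI and included the infarct core with its border, a region absent from sham hearts. No time is labelled for Sham. The labels do not spell out BPD, and give no dose, strain, sex or age; the series' text places its dosing in the proliferative phase of repair. They do not say whether libraries came from separate animals, so p-values measure the spread between these libraries. Total counts were 17006222 to 17424302 in MI+BPD, 19101748 to 19269072 in MI and 14451410 to 17703461 in Sham. The labelled tissue was heart, and all 10 cardiomyocyte markers had counts in every library.

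Lysyl oxidases are secreted copper enzymes that oxidise lysine and hydroxylysine side chains of collagen and elastin. The aldehydes formed in this way condense into covalent crosslinks, which make collagen fibrils stiff and resistant to breakdown. In the infarcted heart, fibroblasts of the scar are known as a main source of these enzymes. Lox and Loxl1 are made with a propeptide that the protease Bmp1 removes, whereas Loxl2, Loxl3 and Loxl4 carry scavenger receptor cysteine-rich domains.

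The annotated coding sequence had 411 codons in Lox, 607 in Loxl1, 776 in Loxl2, 754 in Loxl3 and 758 in Loxl4 (GENCODE M21, build GRCm38). A stretch of 54 coding bases around the copper-binding histidines is shown for the 4 genes Loxl1 to Loxl4, because copper binding is needed for the activity the family shares and the stretch shows how far their transcripts differ. The sequences are spliced across an intron and read 5′ to 3′ on the coding strand, and capitals mark the histidine codons.
Loxl1: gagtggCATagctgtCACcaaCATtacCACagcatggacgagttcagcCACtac
Loxl2: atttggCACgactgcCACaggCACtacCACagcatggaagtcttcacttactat
Loxl3: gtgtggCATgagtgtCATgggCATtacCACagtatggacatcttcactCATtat
Loxl4: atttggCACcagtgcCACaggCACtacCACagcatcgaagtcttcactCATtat
In GRCm38 they lie at chr9:58293696-58294378 on the minus strand for Loxl1, chr14:69682319-69689061 on the plus strand for Loxl2, chr6:83049998-83050149 on the plus strand for Loxl3 and chr19:42598783-42599896 on the minus strand for Loxl4. Loxl2 has 4 histidine codons in this stretch and the other three have 5. Loxl2 and Loxl4 were identical at 49 of the 54 bases (90.7%) and Lox and Loxl1 at 51 (94.4%), while the other pairs shared 34 to 42 bases. Over whole transcripts the longest run of bases shared by any pair was 32, between Lox and Loxl1, against a read length of 150 bp. No pair shared a run as long as a read.

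The comparison of MI with Sham shows how the family stood in the infarcted ventricle. All 5 members rose in MI, and no MI library overlapped a Sham library for any of them. For Loxl4, which passed the filter only through the infarcted groups, the call and the lack of overlap add nothing to these counts. Among all 15138 genes tested, 37.0% were called higher and 31.9% lower in this comparison, and 40.1% had MI libraries wholly above the Sham libraries. The median log2 fold change of all genes tested was 0.07. Values are read counts scaled by library size (CPM) with trimmed mean of M values (TMM) factors, and a gene was called at an edgeR quasi-likelihood adjusted p under 0.05.

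Lox, the founding enzyme of the family, had 808, 822 and 415 CPM in MI 1, MI 2 and MI 3, against 7.32, 9.62 and 8.62 CPM in Sham 1, Sham 2 and Sham 3. The MI libraries lay far above the Sham libraries, and MI 3 was the lowest MI library. The log2 fold change was 6.32 ± 0.40 (SE; edgeR adjusted p = 8.49e-06), a 79.9-fold difference in level with a 95% interval of 43.1-fold to 148-fold. By size of increase Lox ranked at 87 among all genes tested.

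Loxl1, which in mice is needed to maintain elastic fibres, had 352, 417 and 273 CPM in MI 1, MI 2 and MI 3, against 18.6, 17.7 and 21.3 CPM in Sham 1, Sham 2 and Sham 3. Its MI and Sham libraries were far apart, and it rose by a log2 fold change of 4.18 ± 0.29 (SE; edgeR adjusted p = 1.17e-05). Loxl2, which can also act on type IV collagen of basement membranes, had 189, 140 and 114 CPM in MI 1, MI 2 and MI 3, against 13.8, 12.2 and 15.3 CPM in Sham 1, Sham 2 and Sham 3. Its log2 fold change of 3.42 ± 0.19 (SE; edgeR adjusted p = 5.52e-06) had the smallest error of the 5, and MI 1 stood highest.

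Loxl3, an enzyme needed for palate and spine formation in mice, had 177, 216 and 131 CPM in MI 1, MI 2 and MI 3, against 4.39, 4.90 and 3.13 CPM in Sham 1, Sham 2 and Sham 3. The groups did not overlap, and MI 2 was the highest and MI 3 the lowest MI library. Its log2 fold change was 5.41 ± 0.46 (SE; edgeR adjusted p = 2.88e-05), a 42.4-fold difference with an interval of 20.8-fold to 86.7-fold. Exons of Loxl3 overlap those of Htra2 by 535 bases on the opposite strand, and the strand setting of the counting is not given in the sources used here. Htra2, a mitochondrial protease, had a log2 fold change of 0.30 ± 0.14 (SE) and did not pass (edgeR adjusted p = 0.0802), with 178 to 291 counts in Sham against 41 to 56 for Loxl3. Without strand, reads in the shared bases cannot be told apart. Loxl2 exons overlap 2 annotated genes, Gm27177 and Mir6950, that had 0 counts in every library, Lox exons share 30 bases with AC161119.1, and Loxl1 and Loxl4 overlap no other gene.

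Loxl4, the member with the fewest reads, had 169, 134 and 128 counts in MI 1, MI 2 and MI 3, against 5, 9 and 14 counts in Sham 1, Sham 2 and Sham 3. In CPM these are 6.69, 5.46 and 5.89 in MI and 0.457, 0.787 and 1.07 in Sham. The groups did not overlap, and the log2 fold change was 2.93 ± 0.41 (SE; edgeR adjusted p = 2.38e-04). Its Sham libraries alone would not have passed the filter on low counts, so that its entry into the test already favoured a difference; it was also called higher in a fit without the filter.

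**Figure D1:**
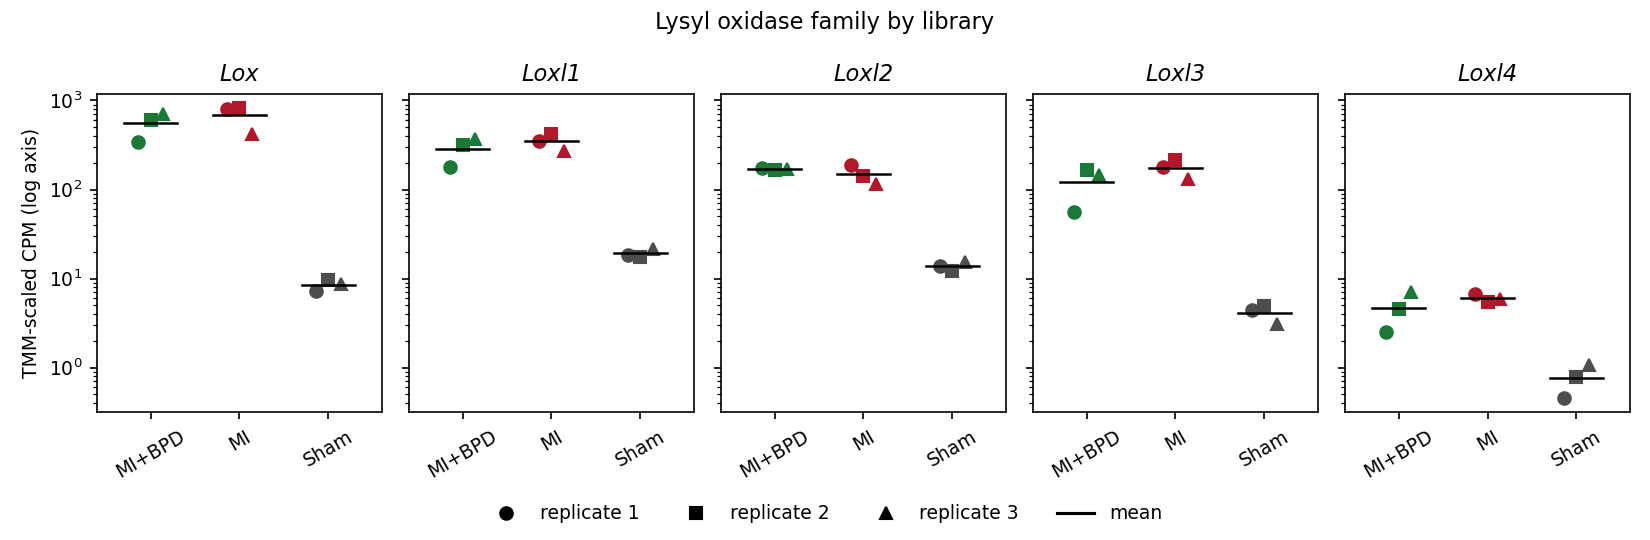
TMM-scaled CPM (log axis) of the 5 family members in the 9 libraries, with MI+BPD, MI and Sham from left to right; symbols mark the replicate and the bar is the group mean. For each gene every MI and MI+BPD library lies above every Sham library, and MI+BPD 1 is the lowest MI+BPD library for Lox, Loxl1, Loxl3 and Loxl4.

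Other cell markers moved in the same comparison. All 10 fibroblast markers rose in MI, with a summed level of 10022 to 14310 CPM in MI and 1894 to 2159 CPM in Sham, and all 10 cardiomyocyte markers fell (21267 to 37275 CPM in MI, 97537 to 102072 CPM in Sham). All 10 macrophage markers rose (830 to 1412 CPM in MI, 403 to 481 CPM in Sham). None of the markers of these 3 lists was at 0 in any library. Of 10 activated fibroblast markers 9 rose (4012 to 4863 CPM in MI, 186 to 303 CPM in Sham), with up to 2 at 0 in a Sham library. Of 10 lymphocyte markers 9 rose, and of 10 epicardial markers 3 rose (6 with library totals as the only scaling), with up to 1 marker of each list at 0 in a Sham library. Of 10 smooth muscle and pericyte markers 4 rose and 3 fell, against 6 and 1 with library totals. Of 10 endothelial markers 7 fell, but with library totals 5 rose and 3 fell. In these lists 4 activated fibroblast, 3 epicardial and all 10 lymphocyte markers passed the filter only through the infarcted groups. Mitochondrially encoded genes held 11.4% to 18.2% of counts in MI and 34.4% to 35.2% in Sham. The part of these cell types and of the mitochondrial share in the rise of the family was not tested. In bulk tissue fewer cells of a type and less RNA per cell cannot be told apart.

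The comparison of MI+BPD with MI asks whether BPD goes with a different level of these genes, the series' own question being fibroblast activation. None of the 5 members passed in edgeR, and none had an unadjusted p under 0.05; DESeq2 and limma-voom called none of the 5 either. All 5 overlapped between the groups. Across all genes 0% were called in edgeR (0 of 15138, with 2043 at an unadjusted p under 0.05), and 13.9% had libraries that did not overlap. DESeq2 called 21 genes higher and 30 lower, and limma-voom 820 higher and 243 lower. Without MI 3 the edgeR fit called 1126 genes higher and 227 lower, and again none of the 5 members. Without MI 3 and MI+BPD 1 together, a choice made after the data were seen, it called 1173 higher and 400 lower, and none of the 5.

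Lox had 345, 603 and 712 CPM in MI+BPD 1, MI+BPD 2 and MI+BPD 3, beside the MI values of 808, 822 and 415 CPM. The lowest MI+BPD library lay below all MI libraries and the other two lay inside the MI range. The log2 fold change was -0.30 with a 95% interval of -0.99 to 0.39 (edgeR adjusted p = 0.649), so MI+BPD levels between 0.503 and 1.31 times those of MI are inside it.

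Loxl1 had 179, 316 and 364 CPM in MI+BPD 1, MI+BPD 2 and MI+BPD 3, against 352, 417 and 273 CPM in MI, with a log2 fold change of -0.28 (-0.83 to 0.28, edgeR adjusted p = 0.593). Loxl3 had 55.2, 167 and 146 CPM in MI+BPD, against 177, 216 and 131 CPM in MI, with a change of -0.51 (-1.30 to 0.28, edgeR adjusted p = 0.504), and its highest MI+BPD library was 3.02 times its lowest. Loxl4 had 2.52, 4.52 and 7.01 CPM in MI+BPD, against 6.69, 5.46 and 5.89 CPM in MI, with a change of -0.35 (-1.09 to 0.38, edgeR adjusted p = 0.610). In all 3 genes MI+BPD 1 was the lowest of the 6 infarcted libraries.

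Loxl2 had 173, 167 and 168 CPM in MI+BPD 1, MI+BPD 2 and MI+BPD 3, inside the MI range of 114 to 189 CPM, with a coefficient of variation of 1.95%, against 26.0% in MI. The other members had coefficients of 33.6% to 48.3% in MI+BPD. The small coefficient of Loxl2 rests on 3 libraries and on their TMM factors (0.983, 1.12 and 1.13). Its counts before scaling were 2894, 3261 and 3305. The log2 fold change of Loxl2 was 0.20 (-0.17 to 0.56, edgeR adjusted p = 0.568). It was the only member with a value above 0 in this comparison; with library totals as the only scaling it was at -0.03. That scaling moved the median of all genes in this comparison to -0.20.

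The summed level of the cardiomyocyte markers was 35513 to 54764 CPM in MI+BPD and 21267 to 37275 CPM in MI, and none of the 10 markers passed in edgeR. MI+BPD 1 held the highest level of the infarcted libraries, 54764 CPM, and also the lowest level of activated fibroblast markers, 2863 CPM. MI+BPD 2 and MI+BPD 3 held 6093 and 6052 CPM of activated fibroblast markers, above the MI range of 4012 to 4863 CPM. Mitochondrially encoded genes held 25.7% of counts in MI+BPD 1. They held 17.6% and 17.7% in MI+BPD 2 and MI+BPD 3, and 11.4% to 18.2% in MI. With the cardiomyocyte score as a covariate the log2 fold changes were 0.58 for Lox, 0.29 for Loxl1, 0.24 for Loxl3 and 0.02 for Loxl4, all on the other side of 0, and none passed (edgeR adjusted p = 0.9999 for each). As a mean of log2 CPM, the fibroblast markers stood at 9.12 in MI+BPD 1 and 9.11 in MI 3. The other infarcted libraries stood at 9.38 to 9.47. The summed fibroblast markers were 12836 to 13299 CPM in MI+BPD and 10022 to 14310 CPM in MI. With their score as the covariate, an alternative chosen after the data were seen, Lox was at -0.41 (edgeR adjusted p = 0.0477) and Loxl1 at -0.41 (edgeR adjusted p = 0.0912). That fit called 1123 of all genes higher and 373 lower. The 2 covariates put the Lox difference on opposite sides of 0, and the part of the mitochondrial share was not tested.

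**Figure D2:**
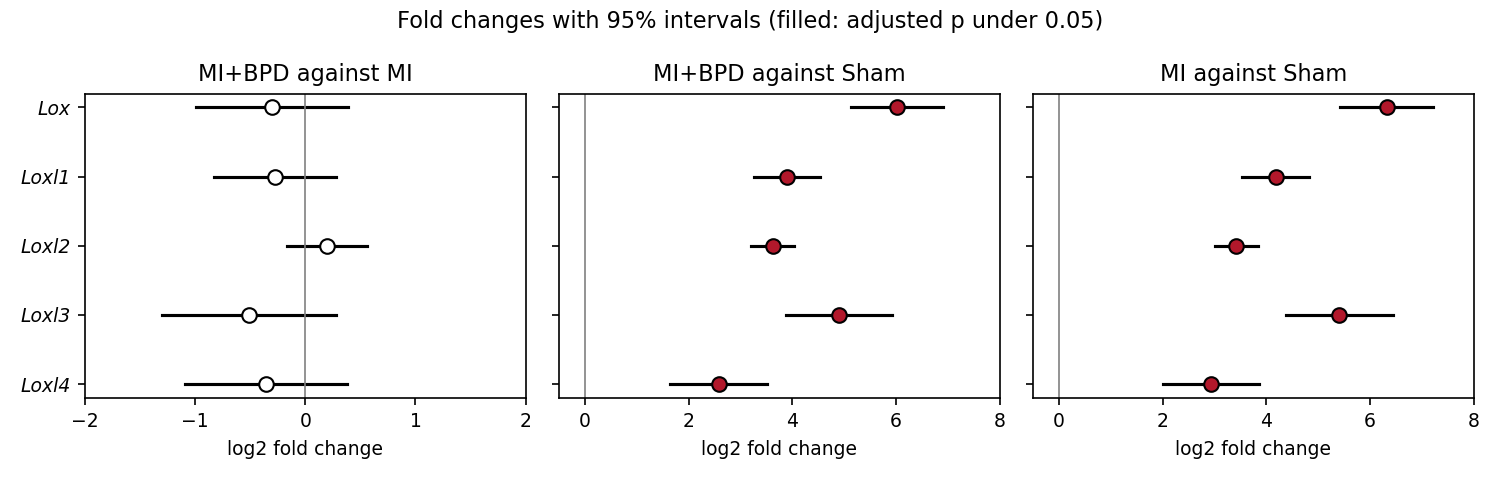
Log2 fold change (point) and 95% interval (line) of each member in the 3 comparisons, from the edgeR fit; filled points had an adjusted p under 0.05. All intervals for MI+BPD against MI include 0, and all those against Sham lie above 0, the lowest bound being 1.64 for Loxl4 in MI+BPD against Sham.

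The comparison of MI+BPD with Sham shares the Sham libraries with the comparison of MI with Sham. All 5 members rose in MI+BPD, with 31.8% of all genes called higher, and their libraries lay wholly above the Sham libraries, as did 35.8% of all genes tested. Loxl4 passed the filter only through the infarcted groups, so its call and its lack of overlap add nothing to these counts. The log2 fold change was 6.02 ± 0.39 for Lox, 3.90 ± 0.28 for Loxl1, 3.62 ± 0.19 for Loxl2, 4.90 ± 0.45 for Loxl3 and 2.58 ± 0.42 for Loxl4 (SE). The edgeR adjusted p ranged from 5.30e-06 for Loxl2 to 9.97e-04 for Loxl4. Even MI+BPD 1, the lowest library, held 345 CPM of Lox, against at most 9.62 CPM in Sham. Of the 15138 genes tested 4202 were called lower. All 10 cardiomyocyte markers fell (9 with library totals), and all 10 fibroblast, all 10 macrophage and 9 of 10 activated fibroblast markers rose. Of 10 markers in each list, 5 lymphocyte and 2 epicardial markers rose and 6 endothelial markers fell. Of 10 smooth muscle and pericyte markers 4 rose and 2 fell, against 7 and 0 with library totals. With library totals 4 endothelial markers rose and 1 fell. All lymphocyte and some activated fibroblast and epicardial markers passed the filter only through the infarcted groups. The part of these cell types was not tested.

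Levels of the different members were compared as CPM per kilobase of exon length. In MI+BPD the order was Lox (116 ± 39.4), Loxl1 (86.8 ± 29.2), Loxl2 (31.4 ± 0.613), Loxl3 (26.7 ± 12.9) and Loxl4 (1.11 ± 0.534; SD, n = 3). In MI it was Lox (143 ± 48.3), Loxl1 (105 ± 21.8), Loxl3 (38.0 ± 9.22), Loxl2 (27.3 ± 7.10) and Loxl4 (1.43 ± 0.149; SD, n = 3). In both infarcted groups the ranges of Lox and Loxl1 overlapped, as did those of Loxl2 and Loxl3, and Loxl4 lay below all others. Within each infarcted library, however, Lox lay above Loxl1, most narrowly in MI 3 (87.0 against 82.9). Loxl3 lay above Loxl2 in every infarcted library but MI+BPD 1 (12.0 against 32.1). Per kilobase of coding length Loxl2 lay above Loxl3 in MI 1 and MI+BPD 3 as well. In Sham the order was Loxl1 (5.81 ± 0.57), Loxl2 (2.55 ± 0.28), Lox (1.78 ± 0.24), Loxl3 (0.899 ± 0.198) and Loxl4 (0.183 ± 0.072; SD, n = 3), and no neighbours overlapped. The whole family summed to 262 ± 80.3 CPM per kilobase in MI+BPD, 315 ± 82.1 in MI and 11.2 ± 0.687 in Sham.

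Shares of the family were taken from these per-length levels, without a test. Lox held 43.9% ± 1.92 of the family's summed level in MI+BPD, 44.6% ± 4.62 in MI and 15.9% ± 2.28 in Sham (SD, n = 3). Loxl1 held 32.9% ± 1.21 in MI+BPD, 34.0% ± 3.56 in MI and 51.7% ± 2.27 in Sham. Loxl2 held 18.7%, 10.7% and 9.58% in MI+BPD 1, MI+BPD 2 and MI+BPD 3, 8.83% ± 1.63 in MI and 22.7% ± 1.64 in Sham. The shares of Lox, Loxl1, Loxl2 and Loxl4 did not overlap between infarcted and Sham libraries, and that of Loxl3 did. Loxl4 held 0.347% to 0.633% in the infarcted libraries and 1.01% to 2.11% in Sham. Shares depend on the length used: per kilobase of coding length Lox held 60.6% in MI+BPD, 61.5% in MI and 27.1% in Sham, and in Sham it then stood ahead of Loxl2 (23.2%).

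**Figure D3:**
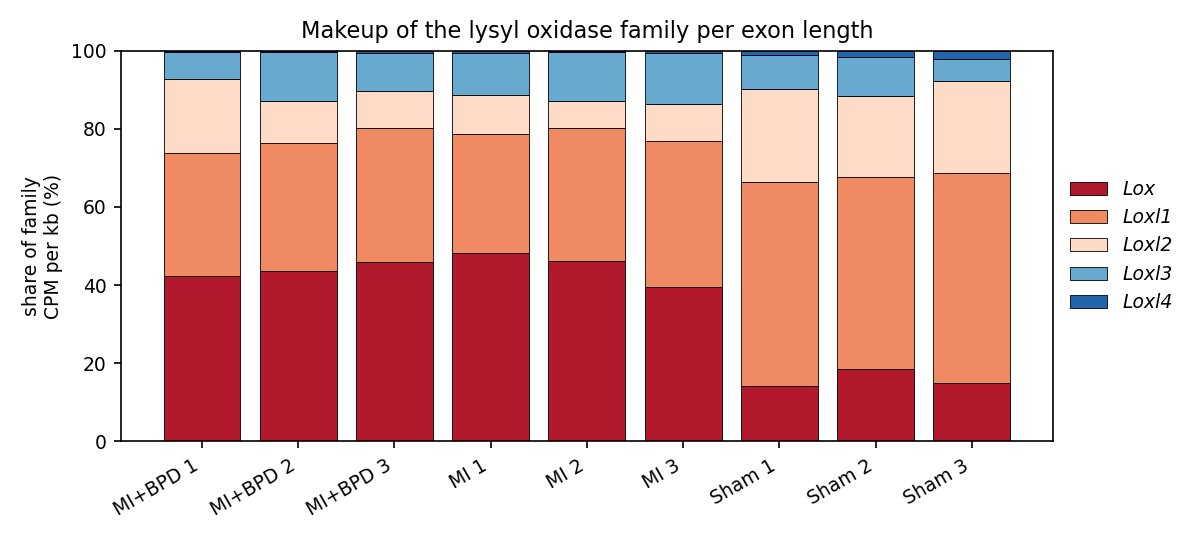
Share of each member in the family's summed CPM per kilobase of exon length (percent), one bar per library, with MI+BPD, MI and Sham from left to right. Lox holds 39.4% to 48.2% in the 6 infarcted libraries and 14.2% to 18.5% in the Sham libraries.

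A measure that needs neither length nor scaling was used to test this balance. For each library the log2 count of a member was centred on the mean log2 count of the 5 members. Lox stood at 2.36 ± 0.26 in MI and 0.53 ± 0.11 in Sham, a difference of 1.83, and Loxl3 at 0.43 ± 0.16 in MI and -0.52 ± 0.41 in Sham, a difference of 0.95 (SD, n = 3). Loxl2 stood at 0.19 ± 0.20 in MI and 1.22 ± 0.20 in Sham, a difference of -1.04, and Loxl4 at -4.402 ± 0.31 in MI and -2.93 ± 0.45 in Sham, a difference of -1.47. These 4 members did not overlap between MI and Sham, each with a 2-sided exact permutation p of 0.1. That is the smallest p that 3 libraries against 3 can give, and adjusted over the 15 tests made it was 0.214. Loxl1 overlapped, with a difference of -0.27 (exact p = 0.2). Values centred in this way sum to 0 within a library, so a shift of one member moves the others.

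Between MI+BPD and MI the balance overlapped for all 5 members. Lox stood at 2.36 ± 0.04 in MI+BPD and 2.36 ± 0.26 in MI. Loxl2 showed the largest difference, at 0.71 ± 0.55 in MI+BPD and 0.19 ± 0.20 in MI (0.53, exact permutation p = 0.2). MI+BPD 1 alone stood at 1.34 for Loxl2, inside the Sham range of 1.004 to 1.38, while MI+BPD 2 and MI+BPD 3 stood at 0.49 and 0.31. Without MI+BPD 1 the difference was 0.22. In MI+BPD against Sham the differences were 1.83 for Lox, -0.29 for Loxl1 and -1.64 for Loxl4, all without overlap (exact permutation p = 0.1 each). Loxl2 (-0.51, exact p = 0.3) and Loxl3 (0.62, exact p = 0.2) overlapped.

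**Figure D4:**
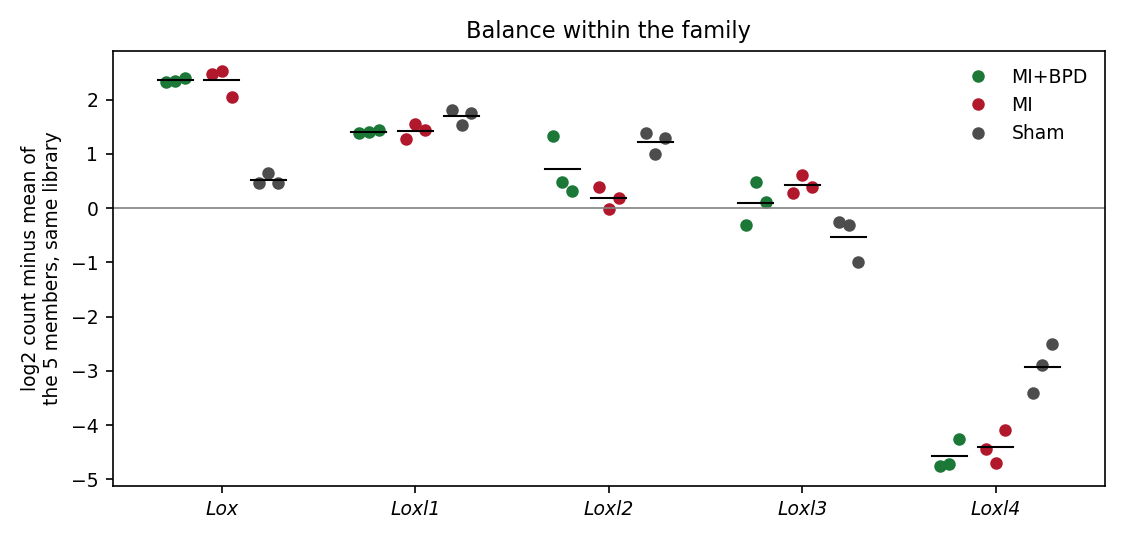
Log2 count of each member minus the mean log2 count of the 5 members in the same library, by group; points are libraries and bars are means of 3. Lox lies higher in all infarcted libraries than in Sham and Loxl4 lower, and 1 MI+BPD library stands with Sham for Loxl2.

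Genes that process, carry or stand as substrates for these enzymes are given from lists written from textbook knowledge, with counts beside the same 37.0% of all genes called higher. The lists were chosen with earlier results of these data known, so their counts are a description and not an independent test. Of 12 processing and binding partners 11 rose and 1 fell in MI against Sham (median log2 fold change 2.80), and 1 of the 11, Tll1, a protease of the Bmp1 family, passed the filter only through the infarcted groups. Postn, a matricellular protein that brings Bmp1 to the matrix, had 2267 ± 126 CPM in MI and 38.0 ± 4.402 CPM in Sham (SD, n = 3). Bmp1, which cleaves the propeptide of Lox, rose by 2.64 ± 0.16 and fibronectin (Fn1) by 5.79 ± 0.37 (log2, SE). The member that fell was Tll2, a protease of the same family, with 0.292 ± 0.23 CPM in MI and 1.76 ± 0.21 CPM in Sham. Tll2 had few reads in the infarcted groups (0.393 ± 0.29 CPM in MI+BPD). Whether it would have passed the filter on low counts without the Sham libraries was not checked, so its entry may have favoured a fall.

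All 11 fibrillar collagen genes were called higher, but 4 of them, Col2a1, Col11a1, Col11a2 and Col24a1, passed the filter only through the infarcted groups, where they are high, and their calls add nothing to the count. The other 7 all rose, among them Col5a1 by 3.91 ± 0.16, Col3a1 by 5.17 ± 0.26 and Col1a2 by 5.29 ± 0.29 (SE). Of 17 elastic fibre genes 13 rose, 0 fell and 4 did not pass (median 3.10; Mfap2 passed the filter only through the infarcted groups), with the microfibril-associated genes Mfap4 at 6.27 ± 0.33, Mfap5 at 4.37 ± 0.26 and Mfap2 at 3.91 ± 0.25. All 6 type IV collagen genes rose (median 1.73), with Col4a6 at 3.40 ± 0.32, Col4a5 at 1.75 ± 0.20 and Col4a2 at 1.72 ± 0.24. Of 10 genes that hydroxylate collagen lysines or assist this, 8 rose and 2 did not pass (median 1.48), against 7 that rose with median-ratio factors and 10 with library totals. Plod1 was the one near the threshold (edgeR adjusted p = 0.0499). These included P3h3 (3.40 ± 0.24), the lysyl hydroxylase Plod2 (1.95 ± 0.14) and the folding factor Fkbp14 (1.36 ± 0.10).

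Of 9 copper uptake and delivery genes tested 3 rose, 4 fell and 2 did not pass (median -0.11), but with library totals as the only scaling, which moved the median of all genes to 0.81, 7 rose and 0 fell. Atp7a, the pump that loads copper onto secreted enzymes, rose by 1.12 ± 0.12, and the metallothionein Mt1 fell by 0.97 on the log2 scale with Commd1 falling by 0.81. Mt2, the other metallothionein listed, rose by 0.71 ± 0.28 (edgeR adjusted p = 0.0483). Atp7b, with 11 counts in all, was not tested.

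Among amine oxidases outside the family the copper enzyme Aoc3 rose by 1.28 ± 0.15, the flavin enzyme Maoa by 0.82 ± 0.23, and Maob fell by 1.88 on the log2 scale, so that 2 rose and 1 fell of 4 tested. Aoc1 (7 counts in all) and the transglutaminase Tgm3 (6 counts) were not tested. Of 5 other crosslinking enzymes tested Pxdn (0.92 ± 0.10) and Qsox1 (1.27 ± 0.14) rose, and transglutaminase Tgm2 did not pass (253 ± 20 CPM in MI, 221 ± 3.1 CPM in Sham; edgeR adjusted p = 0.114). With library totals 4 of these 5 rose. Of 13 inducers and nuclear partners 10 rose and 2 fell, with Tgfb3 at 3.97 ± 0.27, Tgfb2 at 2.97 ± 0.23 and Ccn2 at 4.35 ± 0.49. The members that fell were Epas1 and Yap1, and Yap1 was at 0.56 with library totals only. Several lists share genes, and the fibroblast markers hold Col1a1, Col1a2, Mfap5 and Lum. In MI+BPD against Sham 31.8% of all genes were called higher. Among the lists 10 of 12 partners, 11 of 11 fibrillar collagens, 13 of 17 elastic fibre genes and 6 of 6 type IV collagens were. These counts hold the 4 fibrillar collagens and Mfap2 that passed the filter only through the infarcted groups, whose calls add nothing. The partner Tll2 was called lower. Of 10 hydroxylation genes 7 were called higher, and of 13 inducers 10 higher and 1 lower. Of 9 copper genes 2 were called higher and 4 lower (6 and 0 with library totals). Of 4 amine oxidases 2 were higher and 1 lower, and of 5 other crosslinking enzymes 2 were higher. With median-ratio factors 10 of the 11 fibrillar collagens were called higher, and Col11a2 was near the threshold (edgeR adjusted p = 0.0493). In MI+BPD against MI no gene of any of these lists passed in edgeR, and list medians lay between -0.43 for type IV collagens and 0.06 for copper genes, beside -0.30 for the lysyl oxidase family and 0.00 for all genes.

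**Figure D5:**
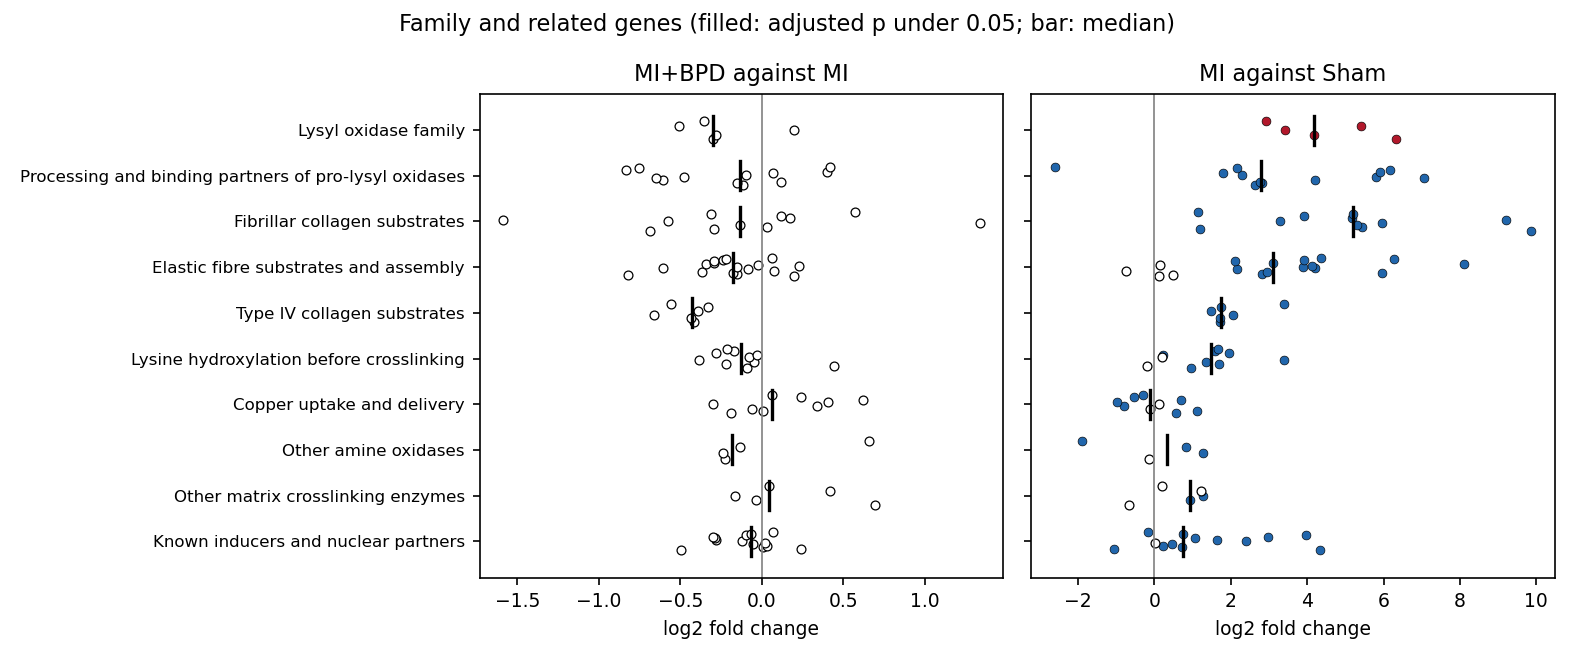
Log2 fold change of each listed gene in MI+BPD against MI and in MI against Sham, one row per list; filled points had an edgeR adjusted p under 0.05 and the bar is the list median. All 5 lysyl oxidases and all 6 type IV collagens lie above 0 in MI against Sham, and no point is filled in MI+BPD against MI.

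Genes whose profile over the 9 libraries was most like each member were found among 10500 genes by the root mean square difference of log2 CPM, each profile centred on its own mean. The profiles keep the gap between Sham and infarcted libraries, so genes with a like fold change in MI against Sham lie close. Likeness within groups was not tested apart from this gap. For Lox these were Mfap4 (0.272 log2 units), Ccn5 (0.281) and Eln (0.296). Eln, the elastin gene, had 869, 2118 and 2831 CPM in MI+BPD, 2171, 2528 and 1871 CPM in MI and 34.0, 36.6 and 35.8 CPM in Sham. For Loxl1 they were Bgn (0.0569), Enpp1 (0.108) and Tgfb3 (0.143). Bgn, a small leucine-rich proteoglycan, had the smallest difference of the pairs named here. Its log2 fold changes were 4.22 in MI against Sham and -0.31 in MI+BPD against MI, beside 4.18 and -0.28 for Loxl1. For Loxl2 they were Fndc1 (0.155), Lum (0.185) and Sdc1 (0.224), and Sdc1 had 57.1, 53.7 and 57.5 CPM in MI+BPD, 61.3, 66.9 and 44.9 CPM in MI and 5.86, 5.60 and 6.86 CPM in Sham. For Loxl3 they were Itgbl1 (0.147), Col8a1 (0.234) and Frzb (0.271), and for Loxl4 Apcdd1 (0.244), Dse (0.257) and Svep1 (0.272). Between members the closest profiles were those of Loxl1 and Loxl2 (0.451), and the farthest those of Lox and Loxl4 (1.68).

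The 250 bases before the start of Loxl4 are shown because Loxl4 rose with the family and is the 1 member of 5 matched in the RefSeq promoter table (GRCm38.p6, chr19:42612807-42613056, minus strand). They are read 5′ to 3′, and capitals mark motif matches.
Loxl4 promoter: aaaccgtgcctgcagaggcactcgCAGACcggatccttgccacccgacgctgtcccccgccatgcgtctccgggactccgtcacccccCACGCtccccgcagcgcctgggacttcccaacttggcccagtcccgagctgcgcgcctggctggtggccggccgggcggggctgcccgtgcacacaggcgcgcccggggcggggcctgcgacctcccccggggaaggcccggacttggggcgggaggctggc
Both strands were searched for 5 motifs. The SMAD motif CAGAC occurs once, as in 42.1% of 27025 promoters of this length, and the hypoxia response form GCGTG once, on the other strand, as in 28.2%. No match was found for the hypoxia form ACGTG (16.6% of promoters), the TEAD motif GGAATG (12.6%) or the AP-1 motif TGANTCA (6.87%). The matches are a description of these letters only.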

How the data were processed

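The authors deposited raw read counts per gene symbol for 9 libraries of mouse left ventricle, with no normalization. Per the submitters' processing notes STAR was used and the builds mm10, GRCm39 and mm39 are named without a role; which program counted the reads, whether by strand, and with which annotation is not given in the sources used here. Per the labels' protocols RNA had an integrity number above 7.0 and reads were 150 bp paired-end. Counts were fitted in R 4.3.3 with edgeR 4.0.16 (TMM factors, filterByExpr with minimum count 10 and minimum total 15, 1 robust quasi-likelihood fit with a mean per group over 9 libraries, 6 residual degrees of freedom). Tests were 2-sided with Benjamini-Hochberg adjustment over 15138 genes. The fit and the permutation test were checked on simulated data. Alternatives used DESeq2 1.42.0, limma 3.58.1, other scalings and filters, a replicate block and each library left out. Exon lengths and overlaps came from GENCODE M21; the 15 balance tests ran in SciPy 1.17.1. Members and lists were chosen with earlier results of these data known. Named list genes are the 3 of smallest adjusted p in MI against Sham, those not tested and those that fell in a list that rose; genes like a member are the 3 of smallest root mean square difference with a mean of at least 5 CPM. Htra2, Plod1, Tll1, Mt2 and the fibrillar collagens under the filter in Sham were named after their values were seen. The sources used here mention no molecular identifiers.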

Additional observations from a re-analysis of the deposited data

How the results depend on the processing

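All 5 members were called higher in MI against Sham and in MI+BPD against Sham in each of the 21 other fits run, with the largest adjusted p at 6.19e-03 (edgeR, Loxl4 in MI+BPD against Sham). Loxl4 passed the main filter on low counts only through the infarcted groups, so its calls in filtered fits add nothing to this count. Library totals as the only scaling put Lox at 7.08 in MI against Sham, beside a median of all genes of 0.81; 10488 of all genes were then called higher and 1765 lower, against 5594 and 4835 with TMM, and in MI+BPD against Sham 9131 and 1383, against 4816 and 4202. In MI+BPD against MI edgeR called 0 of all genes either way, DESeq2 21 higher and 30 lower, limma-voom 820 and 243, edgeR without MI 3 1126 and 227, without MI 3 and MI+BPD 1 1173 and 400, and with the fibroblast score 1123 and 373. In MI+BPD against MI the small values changed sign in places. Loxl2 was at -0.0285 with library totals and at -0.00712 without MI 3 and MI+BPD 1, a choice made after the data were seen. Without MI 1 and MI+BPD 1 Lox was at 0.0731 and Loxl4 at 0.0130. With the cardiomyocyte score as covariate Lox was at 0.58, Loxl1 at 0.29, Loxl3 at 0.24 and Loxl4 at 0.0209. With the fibroblast score, Lox was at -0.41 (adjusted p = 0.0477 in edgeR) and 1 member was called lower. The cause of these shifts was not tested.

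Leaving out each library in turn gave no call for any member in MI+BPD against MI, with Lox from -0.56 to -0.08, Loxl1 from -0.49 to -0.05, Loxl2 from 0.04 to 0.42, Loxl3 from -0.79 to -0.18 and Loxl4 from -0.77 to -0.08. The balance of Lox between MI+BPD and MI was -0.00262 with a pseudocount of 2 and -0.15 to 0.0911 with libraries left out, and that of Loxl1 -0.10 to 0.0422. Per coding length the share of Lox was 60.6% in MI+BPD, 61.5% in MI and 27.1% in Sham, that of Loxl1 21.3%, 22.0% and 41.2% in the same groups, that of Loxl3 8.84% in MI, and that of Loxl4 0.266% in MI+BPD and 0.312% in MI.

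Libraries of the same number deviated together, at a correlation over 0.1, in 2 of 9 pairs (range -0.16 to 0.19). Of 18 pairs of other numbers 1 did (range -0.28 to 0.21). The 2 pairs were MI 1 with MI+BPD 1 (0.14) and MI 2 with MI+BPD 2 (0.19), while MI 3 with MI+BPD 3 stood at -0.16. The numbers were not taken as pairs in the main fit. With the replicate block Lox was at 6.33 in MI against Sham, -0.32 in MI+BPD against MI and 6.01 in MI+BPD against Sham, and no member's call changed. Depth limits Loxl4, with 5 to 14 counts per Sham library.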
